A study of Mus musculus with 24 samples.

Results

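The translation initiation factors are the proteins that load the ribosome onto a messenger RNA, find its start codon and join the ribosomal subunits. Their genes were taken here as every gene of the deposited TPM table whose symbol begins with Eif and a digit from 1 to 6. The 4 eIF2 kinases (Eif2ak) and the 2 genes of eIF2 gamma, Eif2s3x and Eif2s3y, were left out. This left 50 genes of 37229 in the count table, and all 50 passed the filter on low counts, as did 15875 genes in all. They were sorted by role into 8 genes of start site selection, scanning and subunit joining, 9 genes around eIF2 and eIF2B, 14 genes of eIF3, 15 genes of eIF4F and its partners, 2 genes of eIF5A and 2 near-identical copies of Eif4a3.

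In cap-dependent initiation, eIF4E binds the cap, eIF4G bridges the cap to the small ribosomal subunit through eIF3, and the helicase eIF4A opens the leader of the messenger RNA. The complex of eIF2, GTP and initiator tRNA reads the start codon under the control of eIF1, eIF1A and eIF5, and eIF2B then reloads eIF2 with GTP. Both the cap step, through the eIF4E-binding proteins, and the eIF2 step, through phosphorylation of its alpha subunit, are known control points of protein synthesis, and the preimplantation mouse embryo passes from stored maternal messages to its own in the same days.

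The study asked how far embryos grown from separated blastomeres come to resemble intact ones. RNA of 24 single ICR mouse embryos made by in vitro fertilization was read as poly(A) RNA with Smart-seq2, which amplifies full-length cDNA from an oligo(dT) primer. The intact controls were 4 8-cell embryos (8cell), 5 morulae (morula) and 3 blastocysts (blastocyst). The split embryos were 6 morulae (2M) and 6 blastocysts (2B), each grown alone in modified sodium hyaluronate gel from 1 blastomere of a late 2-cell embryo that had been parted by micromanipulation after G-PGD biopsy medium. At each stage they formed 3 sister pairs, and the counts of both sisters were summed, so that n = 4, 5, 3, 3 and 3 units in the order 8-cell, control morula, split morula, control blastocyst and split blastocyst. All groups shared 6% CO2 and 5% O2. The labels gave no litter, sex or batch, and all p-values reflect the scatter of these units, part of which may be technical. They give matched conditions for the controls but name the gel for the split embryos, so parting and gel cannot be told apart.

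Depth was 26.3 to 38.5 M counts per 8-cell embryo, 13.9 to 19.0 M per control morula, 14.1 to 18.9 M per split morula, 11.3 to 12.7 M per control blastocyst and 13.4 to 25.2 M per split blastocyst. The trophectoderm markers, all 5 of which were counted in every group, summed to 3.33 to 29.4 CPM (counts scaled to a common library total) at the 8-cell stage, 439 to 902 in control morulae and 502 to 1890 in split morulae. The same sum was 2030 to 3490 in control blastocysts and 4930 to 6490 in split blastocysts, with no overlap. The keratin genes carried this difference, with mean levels of 754 and 1890 CPM for Krt8 and 1020 and 2790 for Krt18 in control and split blastocysts, while Gata3 had 917 and 864 and Eomes 69.4 and 31.8. The primitive endoderm markers summed to 158 to 229 CPM in control and 73.9 to 111 in split blastocysts, and markers of the cleavage stage and oocyte to 2.61 to 7.33 and 7.57 to 38.5, both without overlap. The sum of the pluripotency markers overlapped, at 251 to 291 and 260 to 359 CPM, within which Pou5f1 averaged 9.1 and 64.1 and Sox2 37 and 12.7. The mitochondrially encoded share of counts was 3.47 to 4.85% in control blastocysts and 0.841 to 2.34% in split blastocysts, and it was 2.7 to 5.06% in control morulae against 1.81 to 3.19% in split morulae. The part of marker level, depth or mitochondrial share in the differences below was not tested. In whole embryos, fewer cells of a type and less RNA per cell cannot be told apart. Markers of cumulus cells summed to at most 1.04 CPM, with 6 or more of 8 at 0 in every group, and those of sperm to at most 6.54 CPM. Blood markers reached 61.4 CPM in a split morula, and fibroblast markers reached 6.36 CPM in a split blastocyst, with Col1a2, Col3a1 and Dcn at 0 there.

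Per unit of length, the 50 genes together made up 17890 ± 1335 TPM (counts scaled for length and library total, mean ± SD over units) at the 8-cell stage, 13620 ± 802 in control morulae and 10800 ± 1074 in control blastocysts. Split morulae had 15780 ± 546 TPM and split blastocysts 15160 ± 379. The unit ranges did not overlap between split blastocysts (14830 to 15570) and control blastocysts (9573 to 11550), nor between split morulae (15270 to 16350) and control morulae (12690 to 14580). Much of the difference between the blastocyst groups lay in a single gene: eIF5A transcripts summed to 4811 ± 203 TPM in split blastocysts and 1720 ± 534 in control blastocysts. The eIF3 sum was 3149 ± 198 against 2549 ± 86.4 TPM in the same groups, and the sum around eIF2 and eIF2B was 2616 ± 72.1 against 2446 ± 285, with overlapping ranges for the latter. The start site and scanning genes held the largest sum at the 8-cell stage, 5124 ± 355 TPM, and 2517 ± 224 in control morulae. The eIF4F sum was nearly level over the control stages at 2495 ± 241, 2499 ± 219.6 and 2305 ± 269 TPM.

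**Figure D1:**
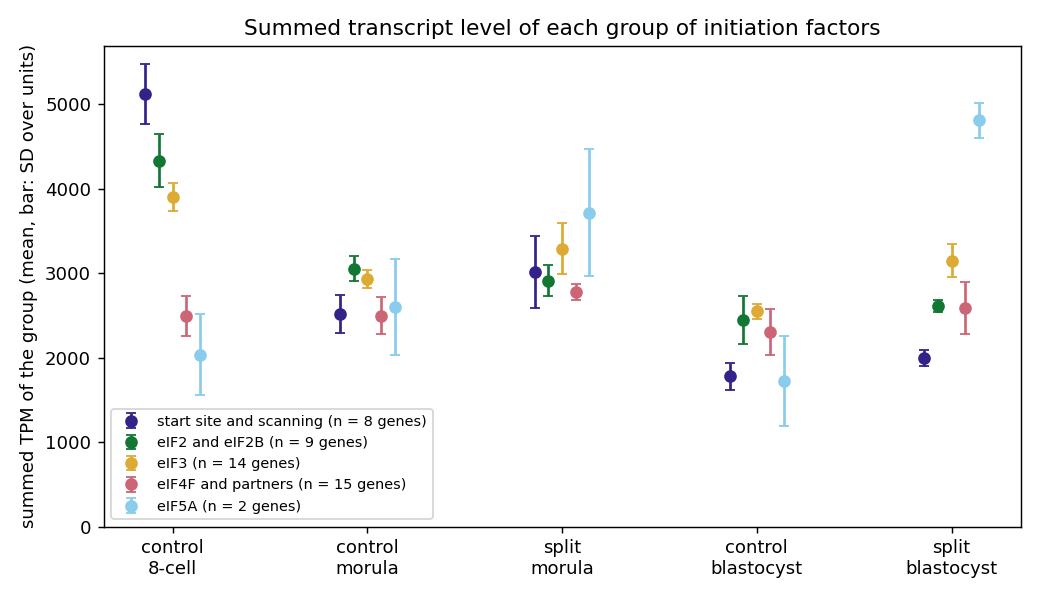
Summed TPM of each role group (y axis, from 0) in the 5 groups of embryos (x axis), as mean and SD over 3 to 5 units. The start site and scanning genes stand highest at the 8-cell stage and eIF5A stands highest in split blastocysts, at 4811 TPM.

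On the way from the intact 8-cell embryo to the intact morula, the initiation factors split into a larger group that fell and a small group that rose. Of the 50 genes, 19 fell and 6 rose at an adjusted p under 0.05 (edgeR's quasi-likelihood test, adjusted by Benjamini-Hochberg over all genes tested), where 10.7% of all tested genes fell and 14.3% rose. The median log2 fold change was -0.36 over the 50 genes and 0.09 over all genes. From the control morula to the control blastocyst, 21 fell and 2 rose, against 7.46% of all tested genes lower and 3.12% higher, with medians of -0.51 and 0.11. With limma on log2(TPM + 1) that split was 14 lower and 7 higher, against 5.35% and 17.2% of all genes. On that scale the medians were -0.06 over the 50 genes and 0.38 over all genes. The count of 23 became 15 without control blastocyst 1. The 2 stage steps share the control morulae.

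Between split and control morulae no initiation factor passed the threshold in edgeR, where 0.0693% of all tested genes were called higher and 0.0567% lower. At an unadjusted p under 0.05 there were 14 of 50, against 15% of all tested genes, and DESeq2 called 6, against 5.34%. Between split and control blastocysts 13 of the 50 were higher and 1 was lower, against 3.42% of all tested genes higher and 1.32% lower. The median was 0.27 over the 50 genes and 0.00 over all genes. With limma on log2(TPM + 1) the split of calls was 11 higher and 3 lower, against 2.64% of all genes higher and 3.16% lower, and the medians were -0.01 over the 50 genes and -0.08 over all genes. From split morula to split blastocyst 8 fell and none rose, against 2.95% and 1.22% of all tested genes. That count was 5 without split blastocyst pair 1 and 3 without pair 3. The difference between the split effects at the blastocyst and at the morula, tested as an interaction, was called for 9 genes, 8 with a higher value at the blastocyst and 1 with a lower one, against 1.37% and 0.265% of all tested genes. It was called for 5 genes without split morula pair 1, control blastocyst 1, control blastocyst 3, split blastocyst pair 1 or split blastocyst pair 3. Both split comparisons enter this difference, and the comparisons of control blastocysts with control morulae and with split blastocysts share the 3 control blastocysts.

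**Figure D2:**
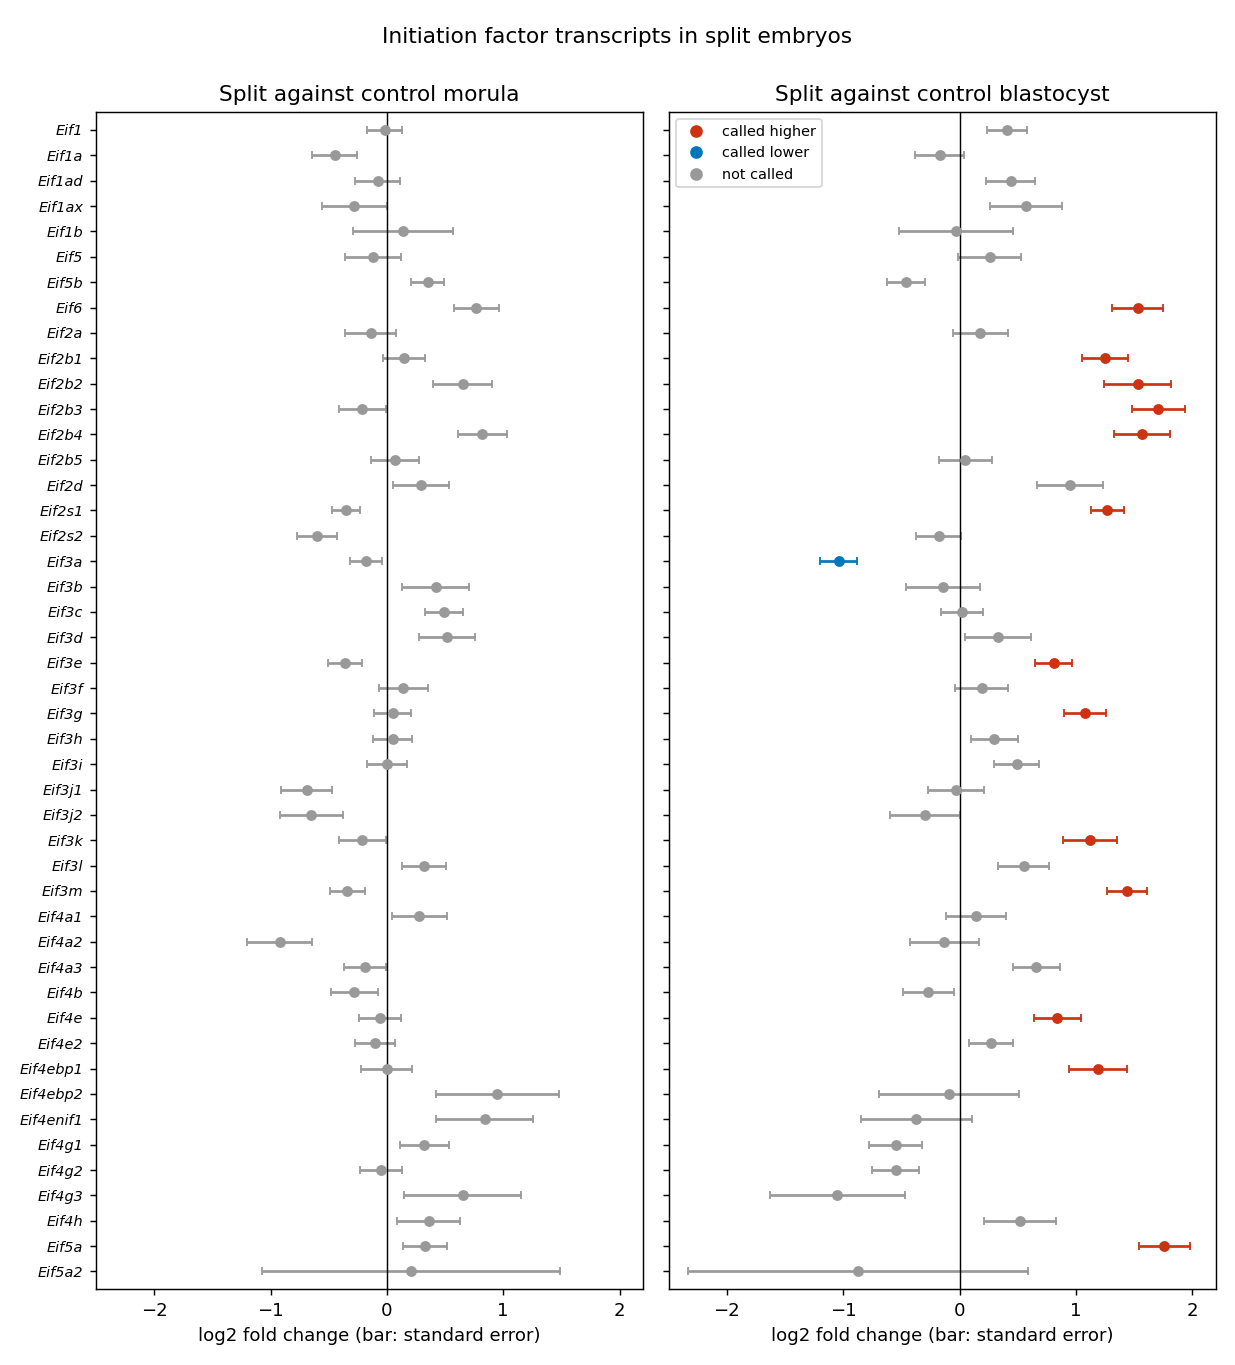
Log2 fold change of split against control embryos (x axis, with standard error) for 46 of the 50 genes (y axis) at the morula (left) and the blastocyst (right); the 2 copies of Eif4a3 and the near-absent Eif4e1b and Eif4e3 are left out. No gene is called at the morula, and 13 higher and 1 lower are called at the blastocyst.

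As a sum, the start site factors were most abundant at the 8-cell stage, though Eif6, Eif1ad and Eif1b had their highest mean CPM in later groups. Eif1, whose product guards the fidelity of start codon choice, had 1657, 1547, 1730 and 1557 CPM in the 4 8-cell embryos and 361, 319, 381, 344 and 495 in the 5 control morulae. It had 256, 258 and 264 CPM in control blastocysts, 356, 427 and 340.2 in split morulae and 372, 315 and 348 in split blastocysts. All 8-cell embryos lay above every later unit. Eif1 fell to the morula (log2 fold change -2.09, SE 0.14, adjusted p = 1.32e-09) and again, by less, to the control blastocyst (log2 fold change -0.55, SE 0.15, adjusted p = 0.0202). Its split and control blastocysts did not overlap, but the difference was not called (log2 fold change 0.41, SE 0.17, adjusted p = 0.214).

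Eif5, the GTPase-activating partner of eIF2, had 6028, 4962, 6092 and 4957 CPM at the 8-cell stage and 3194, 2807, 2759, 3071 and 1253 in control morulae, of which the fifth stood far below the others. The level was 973, 739 and 723 CPM in control blastocysts, 2236, 2036 and 2957 in split morulae and 925, 1328 and 663 in split blastocysts. It fell at both control steps (log2 fold change -1.07, SE 0.22, adjusted p = 0.001, then log2 fold change -1.69, SE 0.26, adjusted p = 0.00011) and from split morula to split blastocyst (log2 fold change -1.31, SE 0.27, adjusted p = 0.00659). The split and control embryos overlapped at both stages, with log2 fold changes of -0.12 ± 0.24 at the morula and 0.26 ± 0.27 (SE) at the blastocyst. Eif5b, the factor of subunit joining, had 1539, 1295, 1408 and 1208 CPM in 8-cell embryos and 304, 354, 406, 324 and 336 in control morulae, a fall of 1.98 on the log2 scale (SE 0.14, adjusted p = 2.07e-09). Control blastocysts had 418, 359 and 323 CPM, split morulae 440.3, 408 and 468 and split blastocysts 247, 300.2 and 255. It fell within the split embryos (log2 fold change -0.71, SE 0.16, adjusted p = 0.0125), and the split blastocysts lay below all 3 control blastocysts without a call (log2 fold change -0.46, SE 0.16, adjusted p = 0.139).

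Eif6, which keeps free large subunits from joining small ones, was measured from the 8-cell stage (846, 516, 553 and 807 CPM) to the control morula (573, 541, 434, 470.3 and 626), with overlapping units and no call (log2 fold change -0.36, SE 0.18, adjusted p = 0.138). In control blastocysts it had 167, 146 and 196 CPM, a fall of 1.64 on the log2 scale (SE 0.21, adjusted p = 1.35e-05). Split blastocysts had 445, 522 and 505 CPM, above all control blastocysts (log2 fold change 1.53, SE 0.22, adjusted p = 0.000243). Split morulae, at 712, 811 and 1175 CPM, also lay above all control morulae, but this difference was not called in edgeR (log2 fold change 0.77, SE 0.19, adjusted p = 0.112). It was called in 4 of 16 alternative runs, whose log2 fold changes ran from 0.53 to 0.93. The difference between the 2 split effects was not called either (log2 fold change 0.77, SE 0.30, adjusted p = 0.222 in edgeR). Within the split embryos Eif6 fell (log2 fold change -0.87, SE 0.22, adjusted p = 0.0242).

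Of the other 4 genes of this role, Eif1ax fell to the morula (-0.84) with overlapping units, and Eif1ad, which carries an eIF1A domain, fell to the control blastocyst (-0.97, both as log2 fold changes). Eif1a and Eif1b had no call in any comparison. Eif1b stayed at 16.9 to 70.7 CPM over all 18 units, and its TPM was 0.0391 ± 0.0249 of that of Eif1 at the 8-cell stage and 0.286 ± 0.0561 in control blastocysts. The 2 coding sequences are 81.3% identical. Eif1ax lies on the X chromosome. It had 368, 786, 338 and 659 CPM in 8-cell embryos and 273, 271, 270, 246 and 440 in control morulae. In the same units Eif2s3y, the Y-linked gene of eIF2 gamma, had 158, 0.108, 113 and 0.0337 CPM, then 53.9, 100.1, 71.8, 109.6 and 0. The part of embryo sex in the fall of Eif1ax and in its high value in control morula 5 was not tested. Several calls in this role hung on single units. The call of Eif1ax was lost without 8-cell embryo 2 or 4 (adjusted p from 0.0616 to 0.0981, with a range of 0.00677 to 0.0981 over its alternatives), and that of Eif1 from morula to blastocyst without control morula 5 or any 1 control blastocyst (adjusted p from 0.0558 to 0.0892, range 0.00432 to 0.773). The falls within the split embryos were lost for Eif5 without split blastocyst pair 3 (adjusted p = 0.0564, range 0.00012 to 0.0564) and for Eif5b without pair 1 or pair 3 (adjusted p from 0.0863 to 0.0908, range 0.000409 to 0.0908). That of Eif6 was lost without split morula pair 3 or any 1 split blastocyst pair (adjusted p from 0.0586 to 0.173, range 0.00053 to 0.173).

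**Figure D3:**
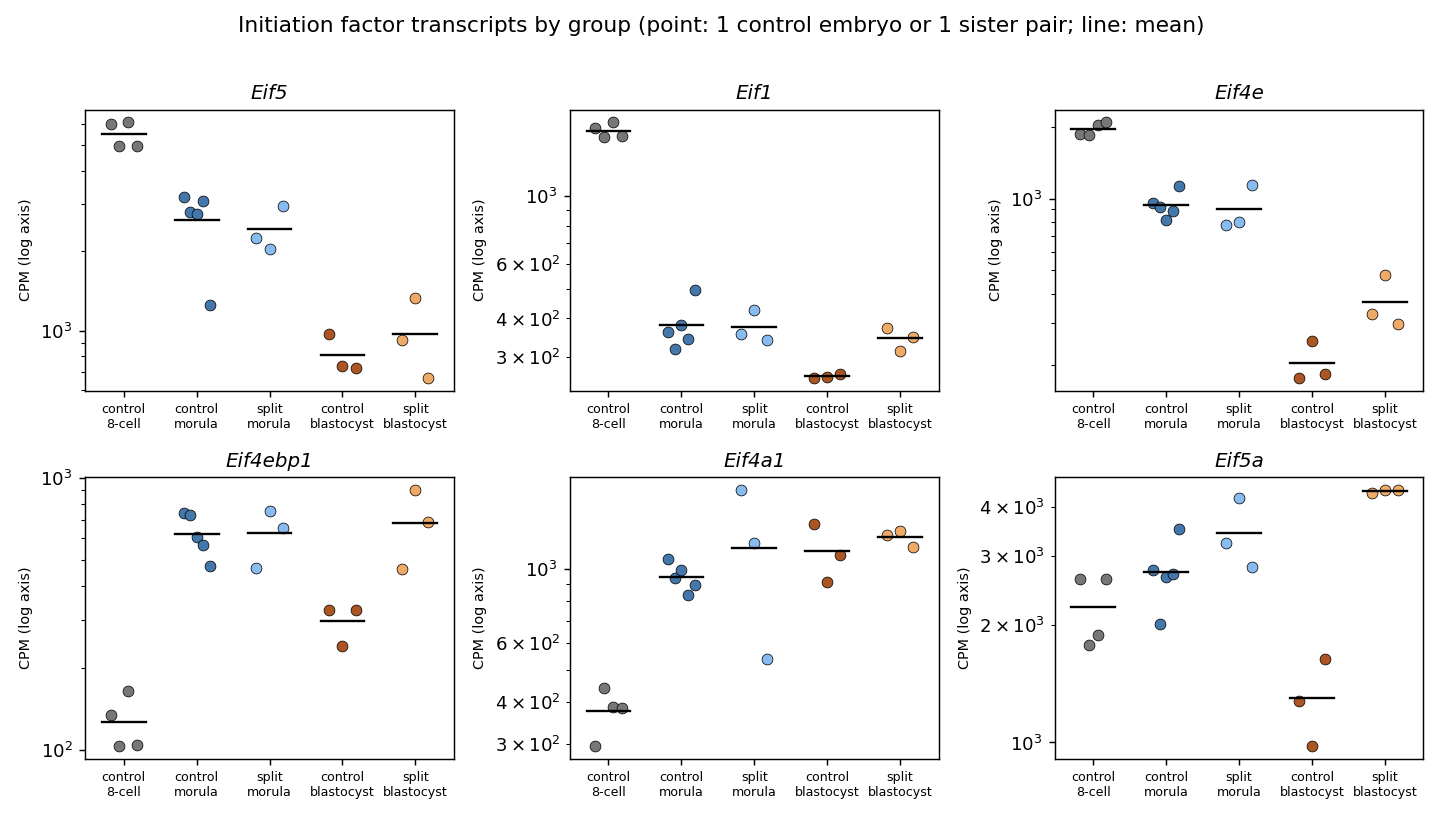
CPM on log axes (each panel with its own range) for 6 initiation factor genes in the 5 groups; a point is 1 control embryo or 1 summed sister pair and a line is the group mean. Eif5, Eif1 and Eif4e are highest at the 8-cell stage, Eif4ebp1 and Eif4a1 are lowest there, and Eif5a is lowest in control blastocysts, at 979.5 to 1638 CPM.

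Among the genes of eIF2 and of its exchange factor eIF2B, 5 of 9 were higher in split than in control blastocysts and none was lower, though their summed TPM overlapped. Of all tested genes 3.42% were higher and 1.32% lower in split blastocysts. eIF2B is a complex whose alpha, beta, gamma, delta and epsilon subunits are encoded by Eif2b1 to Eif2b5, epsilon being the catalytic one. From control morula to control blastocyst, 6 of the 9 fell and none rose, against 7.46% and 3.12% of all tested genes. Upstream sequence is shown for eIF2B genes because 4 of the 5 were called higher together in split blastocysts. Eif2b3 had no entry in the promoter table. Below are the 100 bases before the annotated start of Eif2b1 (chr5:124579132-124579231 on the minus strand), Eif2b2 (chr12:85219381-85219480 on the plus strand), Eif2b4 (chr5:31193140-31193239 on the minus strand) and Eif2b5 (chr16:20498717-20498816 on the plus strand), from RefSeq on GRCm38.p6, 5′ to 3′ along the gene, with GC boxes (GGGCGG on either strand) in capitals.
Eif2b1: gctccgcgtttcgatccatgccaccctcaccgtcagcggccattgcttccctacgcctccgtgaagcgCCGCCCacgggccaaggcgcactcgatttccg
Eif2b2: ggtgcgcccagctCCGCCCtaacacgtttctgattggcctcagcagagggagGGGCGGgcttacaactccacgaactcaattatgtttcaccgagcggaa
Eif2b4: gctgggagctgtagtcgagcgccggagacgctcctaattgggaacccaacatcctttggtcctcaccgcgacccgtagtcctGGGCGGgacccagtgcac
Eif2b5: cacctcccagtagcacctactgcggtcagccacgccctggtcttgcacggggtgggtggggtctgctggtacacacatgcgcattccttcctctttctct

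Eif2b1 and Eif2b4 show 1 GC box each, Eif2b2 shows 2 and Eif2b5 shows none in this stretch. Over windows from 250 bases before to 50 after the start, which 38 of the 50 genes had, the GC box was found in 73.7% of the initiation factor genes and in 60.3% of 11347 other tested genes. An E-box (CACGTG) was found in 21.1% against 9.84%, the ETS motif CCGGAAGT in 15.8% against 8.09%, and the TATA box TATAAA in 7.89% against 7.75%. The cyclic AMP response element TGACGTCA was in none of the 38 and in 3.19% of the other genes. Both strands were searched, and each match describes letters only.

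Eif2s1, the alpha subunit of eIF2 and the target of the eIF2 kinases, had 1313, 1215, 1331 and 1414 CPM at the 8-cell stage, 915, 979, 1019, 968 and 1094 in control morulae and 334, 349.8 and 305 in control blastocysts. Split morulae had 706, 799 and 829.7 CPM and split blastocysts 819.6, 828 and 739. Split blastocysts were thus at the level of split morulae, while control blastocysts lay below every other unit. The falls over the control stages were called (log2 fold change -0.41, SE 0.11, adjusted p = 0.0114, then log2 fold change -1.59, SE 0.13, adjusted p = 5.46e-08). Split blastocysts were higher than control blastocysts (log2 fold change 1.27, SE 0.14, adjusted p = 1.52e-05), split morulae lay below control morulae without a call (log2 fold change -0.35, SE 0.12, adjusted p = 0.238), and the interaction was called (log2 fold change 1.62, SE 0.19, adjusted p = 0.000171). The call at the blastocyst and that of the interaction held in every alternative run, and the morula difference was called in 1 of 16. Eif2s2, the beta subunit, had 9762, 8508, 7812 and 8437 CPM at the 8-cell stage and, at 2763 ± 259 TPM, the highest level per length of the 50 genes there. It fell to the morula (-0.83 ± 0.16 on the log2 scale) and did not differ by call between split and control blastocysts (-0.18 ± 0.19, adjusted p = 0.821).

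Eif2b3, the gamma subunit, had 693, 525, 492 and 385 CPM in 8-cell embryos, 463, 329, 365, 496 and 568 in control morulae and 387, 362 and 401 in split morulae. In control blastocysts it had 64.2, 86.5 and 78.6 CPM and in split blastocysts 270.4, 237 and 244. The blastocyst groups did not overlap, and no morula was as low as any control blastocyst. It fell to the control blastocyst (log2 fold change -2.54, SE 0.22, adjusted p = 8.95e-08), was higher in split than in control blastocysts (log2 fold change 1.71, SE 0.23, adjusted p = 8.61e-05), and the split effect differed between stages (log2 fold change 1.93, SE 0.30, adjusted p = 0.00269).

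Eif2b1, the alpha subunit, gave 492, 578, 709.7 and 604 CPM, 473, 422, 369, 592 and 504 and 108, 117 and 98.2 over the control stages. In split embryos it gave 475, 437 and 655 CPM at the morula and 266, 235 and 268 at the blastocyst. It fell both to the control blastocyst (log2 fold change -2.13, SE 0.20, adjusted p = 2.1e-07) and to the split blastocyst (log2 fold change -1.03, SE 0.20, adjusted p = 0.00389), where its level stayed above that of controls (log2 fold change 1.25, SE 0.20, adjusted p = 0.000566). Its interaction was called (log2 fold change 1.11, SE 0.27, adjusted p = 0.0376), but this was lost when any of 11 of the 14 units was left out (adjusted p from 0.06 to 0.107, range 0.00437 to 0.232).

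Eif2b2, the beta subunit, had 109.8, 55.7, 83.8 and 111 CPM at the 8-cell stage, 125, 108, 107, 99.6 and 118 in control morulae and 30.3, 52.1 and 33.8 in control blastocysts. It had 166, 188 and 171 CPM in split morulae, above all control morulae, and 114, 141 and 81.3 in split blastocysts. Its fall from control morula to control blastocyst was called (log2 fold change -1.53, adjusted p = 0.000419 in edgeR) and held in every alternative run. The blastocyst difference was called (log2 fold change 1.53, SE 0.29, adjusted p = 0.00223), the morula difference was not (log2 fold change 0.65, SE 0.25, adjusted p = 0.263), and the interaction was not (log2 fold change 0.88, SE 0.38, adjusted p = 0.281). Eif2b4, the delta subunit, was alike: 63.3, 72.3, 69.7 and 77.2 CPM, 107, 97.3, 106, 85.6 and 118 and 65.3, 41.4 and 71.9 over the control stages. Its split morulae had 154, 191 and 201 CPM and its split blastocysts 192, 201 and 136, above the controls of their stage in all units. Again the blastocyst difference was called (log2 fold change 1.57, SE 0.24, adjusted p = 0.000429) and the morula difference was not (log2 fold change 0.82, SE 0.21, adjusted p = 0.112), nor was the interaction (log2 fold change 0.75, SE 0.32, adjusted p = 0.284). Eif2b5, the epsilon subunit, had 122, 87.1, 118 and 142 CPM, 118, 121, 120.4, 91.9 and 123 and 153, 133 and 139 over the control stages, 144, 113 and 105 in split morulae and 112, 166 and 162 in split blastocysts. No comparison called it in edgeR, though 1 of 16 alternative runs called a rise from control morula to control blastocyst. Its difference between split and control blastocysts was 0.05 ± 0.23 (log2 fold change and SE).

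Eif2d and Eif2a encode factors that bring initiator tRNA to the ribosome outside the eIF2 complex. Eif2d rose to the morula, from 20.7, 33.8, 31.5 and 35.4 CPM to 188, 101, 155, 180 and 158 (log2 fold change 2.36, SE 0.24, adjusted p = 3.46e-07). Control blastocysts had 97.2, 115 and 80.4 CPM, split morulae 152, 265 and 154 and split blastocysts 180, 201 and 185. Its split blastocysts lay above all control blastocysts and just missed the threshold (log2 fold change 0.95, SE 0.28, adjusted p = 0.051). Eif2a had a single call, a fall to the control blastocyst (-0.75), which was lost without control morula 3 or any 1 control blastocyst (adjusted p from 0.0799 to 0.166, range 0.00769 to 0.427). The rise of Eif2b4 to the morula (log2 fold change 0.54, SE 0.20, adjusted p = 0.0491) was lost in 8 of 9 omissions of a unit (adjusted p from 0.0585 to 0.101, range 0.0153 to 0.184). Its fall to the control blastocyst (-0.79) was lost without control blastocyst 1 or 2 (adjusted p from 0.0583 to 0.162, range 0.00364 to 0.271).

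**Figure D4:**
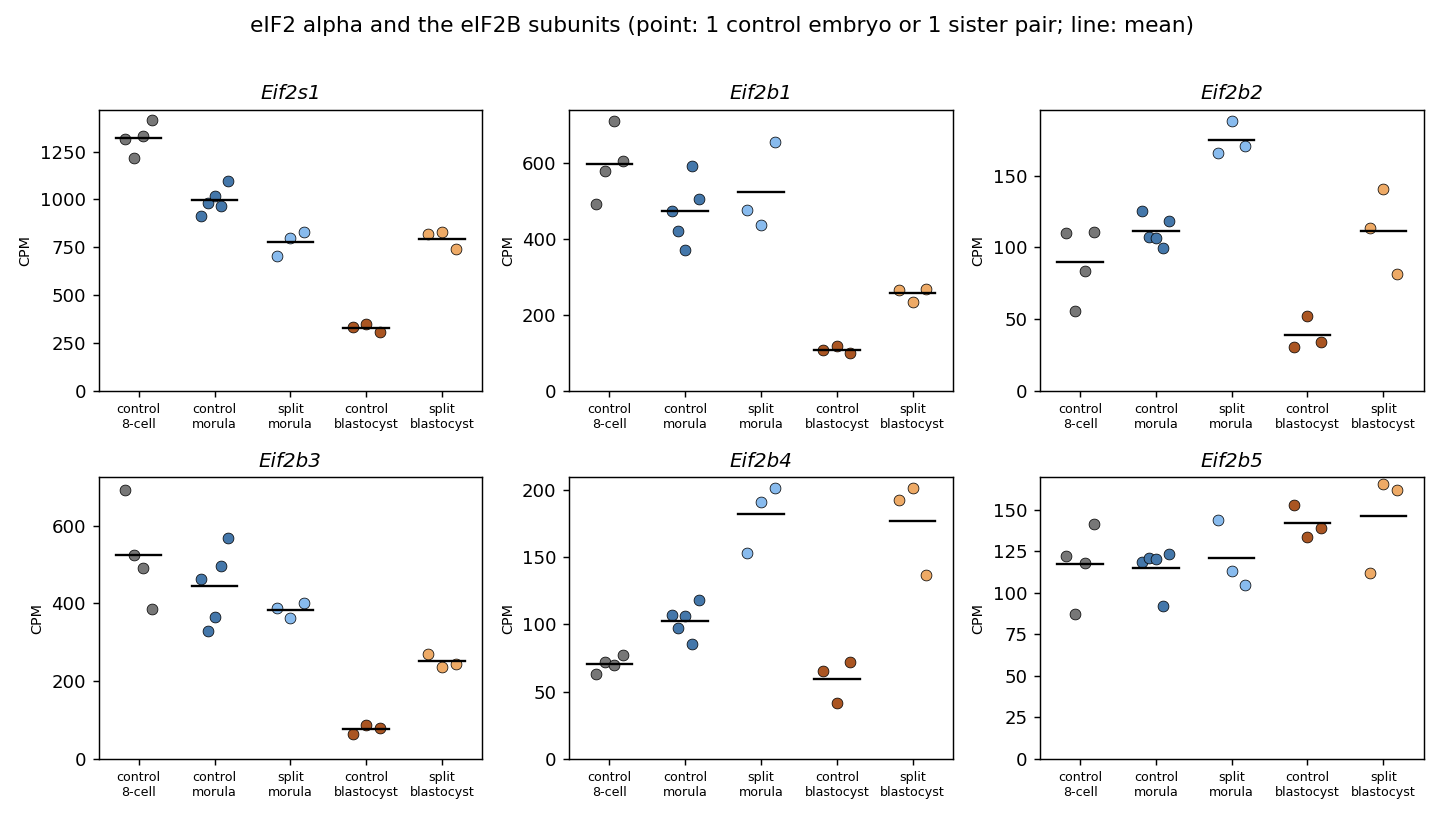
CPM (y axis, from 0) of Eif2s1 and the 5 eIF2B subunit genes in the 5 groups; a point is 1 control embryo or 1 summed sister pair and a line is the group mean. For all but Eif2b5 the 3 control blastocysts lie below the 3 split blastocysts. The share of all genes without such overlap was not computed.

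The 14 eIF3 genes did not move as 1 block. eIF3 is the largest initiation factor and binds the small subunit, and eIF3a is the scaffold of its core. Between the blastocyst groups 4 genes were higher in split embryos (Eif3e, Eif3g, Eif3k and Eif3m) and Eif3a was lower. Of all tested genes 3.42% were higher there and 1.32% lower. Eif3a had 1429, 1563, 1606 and 1475 CPM at the 8-cell stage, 406, 576, 531, 491 and 584 in control morulae and 485, 488 and 525 in control blastocysts. Its split morulae had 435, 459 and 472 CPM and its split blastocysts 276, 204 and 249.9, the lowest values of all 18 units. It fell to the control morula (log2 fold change -1.55, SE 0.13, adjusted p = 3.81e-08) and from split morula to split blastocyst (log2 fold change -0.90, SE 0.16, adjusted p = 0.00199), and was lower in split than in control blastocysts (log2 fold change -1.04, SE 0.16, adjusted p = 0.000443). The interaction (log2 fold change -0.85, SE 0.22, adjusted p = 0.046) was lost in 12 of 14 omissions (adjusted p from 0.0578 to 0.155, range 0.000686 to 0.155).

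Eif3m, a further subunit gene of eIF3, had 548, 643, 612 and 456 CPM in 8-cell embryos, 423, 523, 521, 537 and 541 in control morulae and 137, 146 and 127 in control blastocysts. Split morulae had 423, 369.6 and 416 CPM and split blastocysts 417, 337 and 356. The control blastocysts stood apart, below all other units. The fall to the control blastocyst was called (log2 fold change -1.90, SE 0.16, adjusted p = 8.95e-08), as were the difference between the blastocyst groups (log2 fold change 1.44, SE 0.17, adjusted p = 5.22e-05) and the interaction (log2 fold change 1.77, SE 0.23, adjusted p = 0.000412). Eif3k, which sits beside eIF3l at the edge of the complex, had 581, 283, 290.4 and 420.2 CPM, 458, 497, 468, 454 and 482 and 240.1, 286 and 249.8 over the control stages. It had 422, 448 and 357 CPM in split morulae and 642, 451 and 595 in split blastocysts, with the control blastocysts again below the split ones (log2 fold change 1.12, SE 0.23, adjusted p = 0.00379). Its interaction (log2 fold change 1.33, SE 0.30, adjusted p = 0.0258) was lost in 6 of 14 omissions, those of split morula pair 1 or 3, control blastocyst 1 or 3 and split blastocyst pair 1 or 3 (adjusted p from 0.0504 to 0.0931, range 0.00145 to 0.15).

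Eif3e and Eif3g, the latter an RNA-binding subunit, were higher in split than in control blastocysts with log2 fold changes of 0.81 ± 0.16 and 1.08 ± 0.18 (SE), and their interactions were 1.17 ± 0.22 and 1.03 ± 0.25. That of Eif3g was lost in 11 of 14 omissions (adjusted p from 0.0509 to 0.148, range 0.00101 to 0.247). To the control morula 6 eIF3 genes fell and none rose: Eif3a, Eif3c (-1.26), Eif3e (-0.90), Eif3j1 (-0.78), Eif3i (-0.60) and Eif3h (-0.59, with overlapping units), all as log2 fold changes. Of all tested genes 10.7% fell and 14.3% rose at that step. To the control blastocyst 5 fell, against 7.46% of all tested genes: Eif3m, Eif3g (-1.29), Eif3e (-1.11), Eif3k (-0.87) and Eif3i (-0.73). The call of Eif3k was lost without control blastocyst 1 (adjusted p = 0.0502, range 0.000627 to 0.148), and that of Eif3i without control blastocyst 1 or 3 (adjusted p from 0.0539 to 0.089, range 0.000821 to 0.198). Eif3b, Eif3d, Eif3f, Eif3l and Eif3j2 had no call in any comparison. Eif3j1 and Eif3j2 share 786 identical coding bases, so how reads were divided between them is uncertain. On the TPM scale eIF3 genes ranged in control blastocysts from 45.2 ± 7.86 (Eif3j1) to 342 ± 23.8 (Eif3h).

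At the cap, the messages of the binding protein and of its inhibitor moved apart from the 8-cell stage to the morula. Both then fell to the control blastocyst. Eif4e, the cap-binding subunit, had 1861, 1851, 2033 and 2086 CPM at the 8-cell stage, 958, 926, 814, 885 and 1124 in control morulae and 177, 252 and 184 in control blastocysts. Split morulae had 776, 797 and 1141 CPM and split blastocysts 328, 477 and 298. It fell at both control steps (log2 fold change -1.06, SE 0.16, adjusted p = 4.73e-05, then log2 fold change -2.20, SE 0.19, adjusted p = 1.18e-07) and from split morula to split blastocyst (log2 fold change -1.30, SE 0.20, adjusted p = 0.000494). All split blastocysts lay above all control blastocysts (log2 fold change 0.84, SE 0.20, adjusted p = 0.0129), a call lost without control blastocyst 1, control blastocyst 3 or split blastocyst pair 2 (adjusted p from 0.0673 to 0.121, range 0.00437 to 0.297).

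Eif4ebp1 encodes 4E-BP1, the eIF4E-binding repressor that mTORC1 releases by phosphorylation. It had 134, 103, 165 and 104 CPM in 8-cell embryos, 740.4, 729, 603, 568 and 472 in control morulae and 327, 240 and 328 in control blastocysts. Split morulae had 465, 755 and 652 CPM and split blastocysts 463, 899 and 685. It rose to the morula (log2 fold change 2.30, SE 0.22, adjusted p = 1.67e-07), fell to the control blastocyst (log2 fold change -1.06, SE 0.23, adjusted p = 0.00372) and was higher in split than in control blastocysts (log2 fold change 1.19, SE 0.25, adjusted p = 0.00618). The last call was lost without split blastocyst pair 2, the highest unit (adjusted p = 0.0531, range 0.000637 to 0.0591). As a ratio of TPM within each unit, Eif4ebp1 stood to Eif4e as 0.177 ± 0.0394 at the 8-cell stage, 1.84 ± 0.416 in control morulae and 4.17 ± 1.36 in control blastocysts. In split embryos the ratio was 1.95 ± 0.586 at the morula and 5.14 ± 1.21 at the blastocyst, overlapping the controls of each stage. The 8-cell embryos, at 0.136 to 0.222, lay below all later units in this ratio.

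Eif4ebp2, a second binding repressor, was rare, at 21.2, 20.5, 45 and 18 CPM, 5.57, 4.71, 10.2, 8.77 and 7.18 and 26.5, 9.91 and 33.9 over the control stages, 6.97, 24.7 and 10.6 in split morulae and 17.4, 27.8 and 20.7 in split blastocysts. It fell to the morula (log2 fold change -1.84, SE 0.50, adjusted p = 0.00923) and rose to the control blastocyst with overlapping units (log2 fold change 1.68, SE 0.53, adjusted p = 0.0426). The fall was lost without 8-cell embryo 3 (adjusted p = 0.051, range 0.000204 to 0.122) and the rise in 6 of 8 omissions (adjusted p from 0.0567 to 0.238, range 0.00295 to 0.344). Eif4e2, the cap-binding homologue that represses translation, fell to the morula (-0.99 on the log2 scale), and its TPM relative to Eif4e went from 0.179 ± 0.0264 in control morulae to 0.745 ± 0.171 in control blastocysts. Eif4enif1, the eIF4E transporter, fell to the morula too (-1.44), a call lost without 8-cell embryo 2 (adjusted p = 0.0519, range 0.000551 to 0.0583). The germline homologue Eif4e1b was nearly absent, with 0, 0, 2 and 0 raw counts in 8-cell embryos, 0, 0, 0, 0 and 0 in control morulae and 0, 15 and 2 in control blastocysts. Its split morulae had 0, 13 and 1 counts and its split blastocysts 0, 12 and 0. Eif4e3 had 0 counts in all 8-cell embryos and at most 136 elsewhere. A count of 0 allows up to 3 counts in a library.

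The scaffold Eif4g1 and the homologue Eif4g2, which lacks the eIF4E site, changed in ratio at the blastocyst. Eif4g1 had 299, 186, 175 and 284 CPM at the 8-cell stage, 88.8, 90.9, 85.9, 77.2 and 119 in control morulae and 202, 183 and 224 in control blastocysts. Its split morulae had 130.5, 98.6 and 118 CPM and its split blastocysts 139, 131 and 146. It fell to the morula (log2 fold change -1.35, SE 0.19, adjusted p = 1.94e-05) and rose to the control blastocyst (log2 fold change 1.14, SE 0.20, adjusted p = 0.000587). Split blastocysts lay below all control blastocysts without a call in edgeR (log2 fold change -0.55, SE 0.23, adjusted p = 0.245). This difference was called in 1 of 14 alternative runs. Eif4g2 had 1546, 2519, 2064 and 1600 CPM, 736, 642, 592, 631 and 916 and 536, 518 and 522 over the control stages, 681, 604 and 755 in split morulae and 386, 392 and 299 in split blastocysts. It fell to the morula (log2 fold change -1.46, SE 0.16, adjusted p = 9.57e-07) and within the split embryos (log2 fold change -0.92, SE 0.20, adjusted p = 0.00766), the latter not without split blastocyst pair 3 (adjusted p = 0.0731, range 0.000247 to 0.0731). The TPM ratio of Eif4g2 to Eif4g1 was 5.47 ± 0.456 in control morulae and 1.87 ± 0.184 in control blastocysts, with no overlap, and 4.17 ± 0.562 and 1.86 ± 0.391 in the split groups. Eif4g3 had no call.

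The helicase genes Eif4a1 and Eif4a2, but not Eif4a3, moved against the cap and scaffold genes at the first step. Eif4a1 had 295, 441, 386 and 384 CPM at the 8-cell stage, 1071, 939, 996, 834 and 899 in control morulae and 1366, 915 and 1105 in control blastocysts. Its split blastocysts had 1266, 1299 and 1166 CPM, and its split morulae were the most scattered, at 1722, 1198 and 539. It rose to the morula (log2 fold change 1.33, SE 0.23, adjusted p = 0.000137) and had no other call. Eif4a2 had 163, 182, 308 and 224 CPM at the 8-cell stage, 577, 715, 500.5, 379 and 489 in control morulae and 261, 367 and 244 in control blastocysts. Split morulae had 399, 296 and 150.1 CPM and split blastocysts 265, 300.1 and 228. It rose to the morula (log2 fold change 1.28, SE 0.25, adjusted p = 0.000686) and fell to the control blastocyst (log2 fold change -0.87, SE 0.28, adjusted p = 0.0451), a call lost in 6 of 8 omissions (adjusted p from 0.059 to 0.19, range 0.0124 to 0.317). Its split morulae overlapped the controls and were not called (log2 fold change -0.92, SE 0.28, adjusted p = 0.172). The TPM ratio of Eif4a2 to Eif4a1 was 0.455 ± 0.0959 in control morulae and 0.204 ± 0.0257 in split morulae, with no overlap. It was 0.22 ± 0.0922 and 0.174 ± 0.0167 in the control and split blastocysts. The helicase partners Eif4b and Eif4h had no call in any comparison.

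Eif5a showed the largest difference among the 14 genes called between split and control blastocysts. eIF5A, the only protein known to carry hypusine, was first named an initiation factor and helps the ribosome past stalling sequences in elongation. Eif5a had 2620, 1771, 1885 and 2610 CPM at the 8-cell stage, 2766, 2012, 2642, 2702 and 3520 in control morulae and 3231, 4216 and 2816 in split morulae. Control blastocysts had 1273, 979.5 and 1638 CPM and split blastocysts 4336, 4411 and 4412. The 3 split blastocyst pairs lay close together and far above the control blastocysts. The fall to the control blastocyst (log2 fold change -1.07, SE 0.20, adjusted p = 0.000704), the difference between blastocyst groups (log2 fold change 1.76, SE 0.22, adjusted p = 5.75e-05) and the interaction (log2 fold change 1.43, SE 0.29, adjusted p = 0.0115) were called. The split morulae overlapped the controls (log2 fold change 0.33, SE 0.19, adjusted p = 0.425). No omission of a unit ended these calls, but limma-voom ended the fall and, like limma on log2(TPM + 1), the interaction (ranges 4.16e-05 to 0.11 and 0.000497 to 0.133). Its TPM in split blastocysts, 4810 ± 203, was the highest of the 50 genes in any group. The paralog Eif5a2 stayed at or below 20.4 CPM in all units and had no call.

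Last, 2 near-identical copies of Eif4a3 had their highest mean levels at the morula, with calls for Eif4a3l1 alone. Eif4a3 encodes the helicase of the exon junction complex. Eif4a3l1 and Eif4a3l2 match it at 96.4% and 96.8% of coding bases, and each other at 98.5%. The stretch from base 25 to base 114 of the coding sequence, taken from the reference transcripts, shows how few letters separate the 3 genes. Capitals mark, in Eif4a3, each base at which either copy differs from it and, in the copies, each base that differs from Eif4a3.
Eif4a3: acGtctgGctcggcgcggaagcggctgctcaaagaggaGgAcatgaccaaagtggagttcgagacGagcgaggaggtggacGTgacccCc
Eif4a3l1: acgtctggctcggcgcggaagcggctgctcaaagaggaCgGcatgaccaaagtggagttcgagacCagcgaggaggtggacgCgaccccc
Eif4a3l2: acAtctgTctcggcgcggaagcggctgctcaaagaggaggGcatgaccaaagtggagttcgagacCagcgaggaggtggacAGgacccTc

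In this stretch Eif4a3l1 differs at 4 bases and Eif4a3l2 at 7, so a read over few such bases could be counted for another of the 3 genes, and how the authors treated reads with several matches is not given in the sources used here. Eif4a3l1 had 16, 2, 0 and 2 raw counts in 8-cell embryos, 135, 48, 102, 197 and 44 in control morulae and 1, 4 and 3 in control blastocysts. The summed pairs gave 262, 1120 and 689 counts in split morulae and 11, 12 and 2 in split blastocysts. Morulae of both kinds lay above all other units in CPM. It rose to the control morula (log2 fold change 5.42, SE 1.26, adjusted p = 0.00305), fell to the control blastocyst (log2 fold change -5.25, SE 1.44, adjusted p = 0.0201) and fell from split morula to split blastocyst (log2 fold change -6.44, SE 1.54, adjusted p = 0.0168). The call at the control blastocyst was lost without any 1 control blastocyst (adjusted p from 0.0657 to 0.109, range 3.62e-06 to 0.109), and that in split embryos without split morula pair 2 or any 1 split blastocyst pair (adjusted p from 0.0558 to 0.112, range 1.01e-08 to 0.112). Split and control morulae overlapped and were not called (log2 fold change 1.53, SE 1.06, adjusted p = 0.561). Eif4a3l2 had 26, 13, 62 and 26 counts in 8-cell embryos, 89, 27, 58, 106 and 57 in control morulae and 9, 12 and 11 in control blastocysts, with 174, 640 and 452 in split morulae and 37, 22 and 40 in split blastocysts. It had no call. Eif4a3 itself did not peak at the morula: it fell from 498, 542, 555 and 690 CPM at the 8-cell stage to 337, 376, 301, 352 and 492 in control morulae (log2 fold change -0.62, SE 0.16, adjusted p = 0.00813) and to 177, 176 and 168 in control blastocysts (log2 fold change -1.10, SE 0.19, adjusted p = 0.000339). Split morulae had 330.5, 274 and 371 CPM and split blastocysts 330, 228 and 264, the latter above all control blastocysts without a call (log2 fold change 0.66, SE 0.20, adjusted p = 0.0671). From the 8-cell stage to the morula Eif4a3 thus fell while Eif4a3l1 rose.

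**Figure D5:**
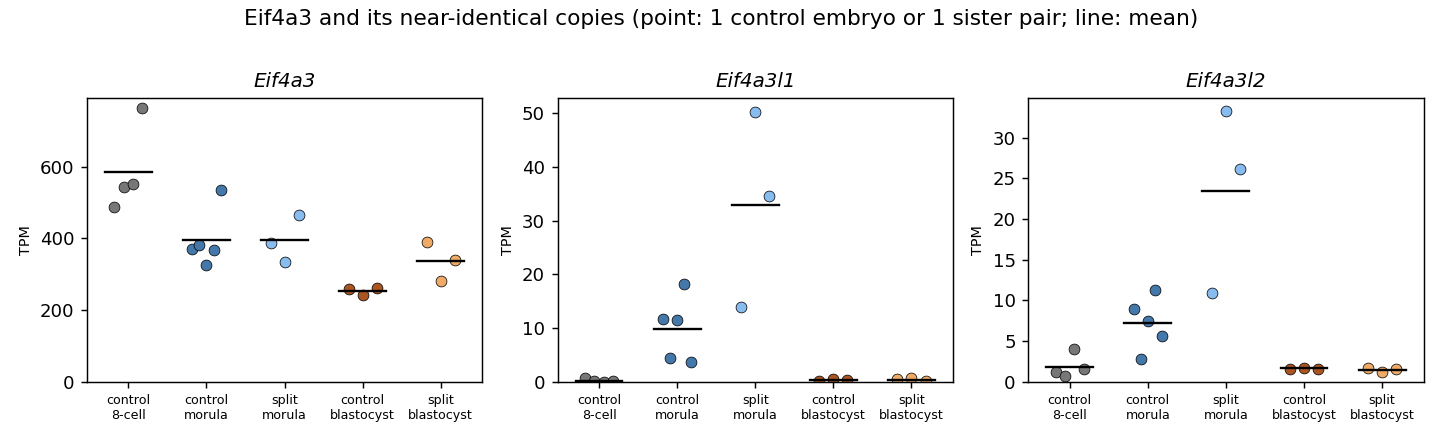
TPM (y axis, from 0, each panel with its own range) of Eif4a3 and its 2 copies in the 5 groups. A point is 1 control embryo or the average of 1 sister pair, and a line is the group mean. Both copies are highest in morulae, where Eif4a3l1 averages 9.88 TPM in controls and 32.9 in split embryos, while Eif4a3 is highest at the 8-cell stage.

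Transcript length moved with the comparisons and is given beside them. Genes were sorted into short, middle and long classes of 5168 genes each by the length behind the authors' TPM. Between split and control blastocysts the median log2 fold change of all genes was 0.31 in the short class, 0.17 in the middle and -0.35 in the long class. The initiation factors had medians of 0.41, 0.26 and -0.03 in these classes. In the short class 7 of 17 were called higher, where 4.88% of genes were, in the middle class 3 of 14 against 4.22%, and in the long class 3 of 19 against 1.41%, with 1 lower against 2.69%. Eif2b3, Eif3e and Eif4e are the long ones called higher and Eif3a is the long one called lower. From morula to control blastocyst the medians of all genes were -0.19, 0.07 and 0.44, and those of the initiation factors -1.06, -0.37 and -0.42, with 10, 5 and 6 called lower, where 8.88%, 9.25% and 4.78% of all genes in the classes were. From the 8-cell stage to the morula 13 of the 19 falls lay in the long class, which also held the largest share of falls over all genes (14.5%, against 8.65% in the short and 9.52% in the middle class). The part of length in these differences was not tested.

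Sister embryos share a zygote, so their likeness was described as well. Over the 50 genes, the mean absolute log2 difference between sister morulae was 0.62, 0.41 and 0.59, and between split morulae that were not sisters it ran from 0.43 to 0.80 with a median of 0.68 over 12 couples. Sister blastocysts differed by 0.39, 0.74 and 0.25, and those that were not sisters by 0.29 to 0.65 with a median of 0.48. Couples of control morulae had a median of 0.38 and couples of control blastocysts 0.38. The second pair of split blastocysts thus differed more than any couple of split blastocysts that were not sisters, and less than the most different couples of split morulae. Eif4a1 was at 809.5 CPM in one sister of that pair and 1715 in the other, and Eif2b3 at 167.9 and 296.7. Eif5a differed little there, at 4158 and 4705 CPM. For Eif4a3l1 the sisters of split morula pairs had 5.31 and 11.9, 27.8 and 33.0, and 12.7 and 27.6 CPM.

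Around the initiation factors, the regulators of eIF2 gave no call between split and control blastocysts, with 0 of 9 tested genes called by edgeR, 0 at an unadjusted p under 0.05 and 0 by DESeq2 (eIF2 gamma, the kinases, their phosphatase subunits and response factors). With 3.42% of all tested genes higher and 1.32% lower, a list of this size is near the background at 0 calls. Over the control stages Atf4, the transcription factor translated when eIF2 alpha is phosphorylated, fell to the morula (log2 fold change -0.88, SE 0.28, adjusted p = 0.0248) and rose to the control blastocyst (log2 fold change 1.10, SE 0.30, adjusted p = 0.0171). It rose to the split blastocyst too (log2 fold change 1.36, SE 0.34, adjusted p = 0.0242). Ppp1r15b, the constitutive partner of the eIF2 alpha phosphatase, fell to the morula (-1.62) and rose to the control blastocyst (1.27, log2 fold changes). Of 15 genes of mTORC1 and MNK signalling, 3 rose and 3 fell to the morula, against 14.3% and 10.7% of all tested genes. In a list of this size such counts are not far from the background. Rraga, a Rag GTPase that calls mTORC1 to the lysosome, rose most (log2 fold change 4.91, SE 0.84, adjusted p = 0.000163), but from very few counts. It had 0 to 1.48 CPM in 8-cell embryos and 11.15 to 23.88 in control morulae. Pdcd4, an inhibitor of eIF4A, rose (log2 fold change 3.72, SE 0.41, adjusted p = 1.71e-06), and Mknk1, which phosphorylates eIF4E, fell (log2 fold change -2.41, SE 0.81, adjusted p = 0.0351), as did Larp1 (-1.47). To the control blastocyst 1 rose (Pdcd4, 1.22) and 2 fell (Rheb, -1.05, and Lamtor1, -1.02), against 3.12% and 7.46% of all tested genes. Lamtor1, which anchors the Rag complex, was the single gene of this list called between split and control blastocysts (log2 fold change 1.50, SE 0.24, adjusted p = 0.000443) and in the interaction (log2 fold change 1.68, SE 0.31, adjusted p = 0.00754).

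The counts of the lists below stand beside these shares of all tested genes. To the control morula 14.3% rose and 10.7% fell, and to the control blastocyst 3.12% rose and 7.46% fell. From split morula to split blastocyst 1.22% rose and 2.95% fell. In split against control blastocysts 3.42% were higher and 1.32% lower. Among 9 tested poly(A)-binding proteins and partners 3 were lower in split blastocysts and none was higher: Paip1 (log2 fold change -1.25, SE 0.30, adjusted p = 0.0144), Larp4 (log2 fold change -0.96, SE 0.28, adjusted p = 0.0488) and Pabpc1 (log2 fold change -0.79, SE 0.19, adjusted p = 0.0134). To the morula 2 of these 9 rose (Pabpn1, 2.42, and Paip1, 2.07) and 4 fell, and to the control blastocyst 2 fell, Larp4 (-2.19) and Paip2 (-1.52). The same 2 genes fell to the split blastocyst (-2.71 and -1.04). Of 10 accessory factors 7 fell and 1 rose to the morula, led by Bzw2 (-1.83) and Abcf1 (-1.78), with the rescue GTPase gene Hbs1l rising (1.29). Only 1 of this list fell to the control blastocyst, Bzw1 (-1.11), and 3 fell to the split blastocyst, led by Ddx3x (-1.30). Of 14 elongation and termination factors 2 were higher in split blastocysts, the eEF1 subunits Eef1d (log2 fold change 1.21, SE 0.19, adjusted p = 0.000435) and Eef1g (log2 fold change 0.90, SE 0.21, adjusted p = 0.0137). To the morula 3 rose and 2 fell, which is near the background, with Eef1b2 (1.10), Eef1a1 (0.95), Gspt1 (-0.72) and Etf1 (-0.61) among them. To the control blastocyst 2 fell, Eef1e1 (-1.53) and Eef1d (-0.91). Of 10 genes of cap synthesis and removal 3 fell to the morula, with Ncbp1 (-1.73) and Ncbp2 (-1.47) leading, and 2 to the control blastocyst, Rnmt (-1.35) and Ramac (-1.13). Rnmt, the cap methyltransferase, fell to the split blastocyst as well (-0.82). Between split and control morulae none of the 67 tested genes of these lists was called by edgeR, with 13 at an unadjusted p under 0.05 and 5 called by DESeq2. Of all tested genes 15% had such an unadjusted p and 5.34% were called by DESeq2. Values without a named test in this account are log2 fold changes.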

How the data were processed

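Raw read counts of 24 libraries were deposited for 37229 gene symbols, and 13375 of these were 0 throughout. The deposited TPM table held 15625 genes, scaled for length and depth by the authors. The submitters' processing notes name FastQC, MultiQC, cutadapt, HISAT2, featureCounts, edgeR and GRCm39, and how reads with several matches or either strand were counted is not given in the sources used here. Overlapping and antisense genes are therefore uncertain. The TPM was the count over 1 fixed length per gene, since the ratio varied by under 1% between libraries in 100% of genes.

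Counts of both sisters of a pair were summed (TPM averaged), which gave 18 units in 5 groups. edgeR 4.0.16 in R 4.3.3 filtered genes (filterByExpr, 15875 kept), scaled libraries by trimmed means (TMM) and fitted all 5 groups in its robust quasi-likelihood test, two-sided, with 13 residual degrees of freedom. In 6 comparisons, p-values were adjusted after Benjamini-Hochberg over all genes tested and called below 0.05. The analysis was tested on simulated data, where it made no call of the wrong sign but recovered only a minority of the changes put in, and few of the smaller ones. A missing call therefore does not show equal levels. CPM use the scaled library sizes, except those of the cell type markers, which use the unscaled totals. CPM of single sisters come from a separate scaling of the single embryos. Alternatives with DESeq2 1.42.0, limma 3.58.1 (voom, and log2 of TPM with a pseudocount of 1) and other settings are in the closing section.

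The members and lists were chosen with earlier results of these data known. Every called gene is named. Values in all units are given for a panel of 12 genes and for the called genes whose mean log2 CPM was 3 or more and whose change was among the 5 largest per direction and comparison. Of each list of neighbouring genes up to 2 called genes per comparison and direction are named, and in some sentences more, chosen after their values were seen. The comparison of sisters, the ratios, Eif2s2, Eif2a, Eif4a3 and the 2 copies of Eif4a3 were also described after their values were seen. Libraries carried no molecular identifiers, so limits from counts cover counting error only. Promoter windows and coding sequences are on GRCm38, not on the build of the counts.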

Additional observations from a re-analysis of the deposited data

Results flagged for a closer look

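The split effect differed between the blastocyst and the morula, by the interaction test in edgeR, for 9 of the 50 genes. The difference of log2 fold changes was 1.93 for Eif2b3, 1.77 for Eif3m, 1.62 for Eif2s1, 1.43 for Eif5a, 1.33 for Eif3k, 1.17 for Eif3e, 1.11 for Eif2b1, 1.03 for Eif3g and -0.85 for Eif3a. At the morula the same 9 genes had split effects of -0.21, -0.34, -0.35, 0.33, -0.21, -0.36, 0.15, 0.05 and -0.18, none of them called.

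In 13 of 98 sets of 4 or 5 control values, 1 unit stood further from the rest than the 95% limit of Dixon's gap test, where chance gives about 1 in 20. Control morula 5 stood apart for 3 genes, with Eif5 at 1253 CPM in control morula 5 (others 2759 to 3194), Eif1ax at 440.4 CPM in control morula 5 (others 246 to 273) and Eif4h at 245 CPM in control morula 5 (others 104 to 129). Other control morulae gave Eif2a at 154 CPM in control morula 3 (others 91.8 to 103), Eif2b5 at 91.9 CPM in control morula 4 (others 118 to 123), Eif3i at 268 CPM in control morula 1 (others 302 to 315), Eif3m at 423 CPM in control morula 1 (others 521 to 541), Eif4e2 at 234 CPM in control morula 2 (others 195 to 206) and Eif4e3 at 2.17 CPM in control morula 1 (others 0 to 0.538). Among 8-cell embryos there were Eif1b at 70.7 CPM in 8-cell embryo 3 (others 20.8 to 26), Eif4ebp2 at 45 CPM in 8-cell embryo 3 (others 18 to 21.2), Eif4e1b at 0.0834 CPM in 8-cell embryo 3 (others 0) and Eif4a3l1 at 0.472 CPM in 8-cell embryo 1 (others 0 to 0.0722).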

How the results depend on the processing

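No result changed direction with a call under any alternative. From the 8-cell stage to the morula the count of 25 called genes stayed between 22 and 28, and 21 genes were called in every alternative. From control morula to control blastocyst the count of 23 fell to 14 with limma-voom and to 15 to 22 when 1 unit was left out, and 11 genes were called throughout. limma-voom and limma on TPM put the median of all genes at 0.41 and 0.38 there, against 0.11 in edgeR, and both ended the calls of Eif1, Eif2a, Eif2b4, Eif3k, Eif4a2 and Eif4ebp1, limma-voom also those of Eif4ebp2, Eif5 and Eif5a, and limma on TPM those of Eif1ad and Eif3i. For split against control morulae the count of 0 became 6 with DESeq2, 1 without the low count filter, 3 with sisters taken as separate samples and 2 with limma-voom, where the median of all genes was -0.36, and stayed at 0 in all omissions of a unit. For split against control blastocysts the count of 14 stayed between 12 and 19, and 12 genes were called throughout. Eif4e was lost with limma-voom, where the median of all genes was -0.27, and, like Eif4ebp1, with limma on TPM. From split morula to split blastocyst the count of 8 became 5 with only those groups in the fit and 3 to 8 when 1 unit was left out, and 3 genes were called throughout (Eif3a, Eif4e and Eif2b1). The count became 9 with DESeq2 and with limma on TPM. With limma-voom, and with sisters taken as separate samples, it became 12 (11 lower and 1 higher). For the difference between split effects the count of 9 became 14 with DESeq2 (11 higher and 3 lower), 5 with limma on TPM (3 higher and 2 lower) and 5 to 9 when 1 unit was left out, and 3 genes were called throughout (Eif2s1, Eif3m and Eif2b3). Replicate numbers were not taken as pairs: of 31 same-numbered couples none correlated over 0.1 (-0.03 to 0.08). The own number was the best match in 25 of 62 cases, and the share that chance would give was not computed. The replicate block gave 5 genes for the difference between split effects, where it ended the calls of Eif3a, Eif2b1, Eif3k and Eif3g, and 25, 18, 0, 14 and 8 in the other comparisons. The cause of these shifts was not tested. Where an alternative leaves a group with 2 units, its spread is shared with the other groups. Genes under 1 CPM (Eif4e1b, and Eif4a3l1 outside the morula) rest on few counts.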
